A study of Mus musculus with 16 samples.

Results

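Serum withdrawal was examined in C2C12 iMyoD1 myoblasts in which MyoD1 had been induced, by comparing open chromatin after 24 h in differentiation medium with doxycycline (DM +dox, replicates 2 to 4) against 24 h in growth medium with doxycycline (GM +dox, replicates 1 to 4). These 7 ATAC-seq libraries were chosen by medium and dox label from the 16 of the series. C2C12 is a mouse myoblast line that divides in rich serum and forms myotubes when serum is removed. The iMyoD1 derivative is a polyclonal line that keeps its own Myod1 gene and carries an integrated transgene for V5- and Halo-tagged MyoD1. Cells of all 7 libraries were given dox, which adds tagged protein to the endogenous factor. The study reports detectable tagged protein in only a minority of nuclei of this line, counted in differentiating cultures with dox. The bulk libraries can therefore mix such cells with cells that have the endogenous factor alone. GM held 20% FBS, while DM held low horse serum with insulin, transferrin and selenium, and dox and medium change were given at the same time. Cells were plated at 75000 per well for GM and at 300000 per well for DM, so effects of medium and of cell density cannot be told apart. Replicate 1 of DM +dox was left out, as the study's methods did, because of its quality; its list held 14236 peaks. The methods call the replicates biological, and nothing in the labels says whether they came from separate cultures, so p-values measure the spread between these libraries.

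MyoD1 is a basic helix-loop-helix factor that binds E-boxes as a dimer with an E protein and drives the muscle programme. In C2C12 cells it is present before differentiation, and its activity is held back by serum signals, by Id proteins that sequester E proteins, and by growth factor signalling through AP-1 (dimers of Fos and Jun family proteins). CAGCTG is the E-box form usually given as the canonical MyoD1 site. CAGGTG, the same as CACCTG on the other strand, is a second form that MyoD1 with E proteins can bind and that Snail and ZEB repressors also recognise.

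From each library the 14710 peaks with the highest −log10 p of the peak caller were kept, so that all lists were equally long, and peaks that overlapped across the 7 lists formed 22514 regions. Of these, 8028 had a peak in all 7 lists. A region was termed DM-side when it had a peak in all 3 DM lists and in none of the 4 GM lists (252 regions, 1.12% of all), and GM-side in the reverse case (250 regions, 1.11%). The counts have no test. The most frequent partial patterns were a peak in 1 GM list only (2096 regions) and in 1 DM list only (1576 regions).

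Windows of 5 DM-side regions that hold an E-box are shown first, picked for that after their values were seen; the Hdhd3 and Zfp637 regions, among the 8 strongest DM-side ones, held no E-box. Each line gives the 201 bases centred on the summit on the plus strand of mm10 (GRCm38), with E-boxes of both forms and the AP-1 motif, TGANTCA, in capitals. Zfp330 and B3galnt2 have a CAGGTG form in the same window as an AP-1 motif, Gpt2 a single CAGCTG, Tead1 a pair of CAGCTG separated by a short spacer, and Lep a CAGCTG directly joined to a CAGGTG. The Kat2b region was held in all 7 lists and ranked higher in DM, and has a pair of CAGCTG and a CACCTG but no AP-1 motif.
Zfp330 (chr8:82778041-82778241): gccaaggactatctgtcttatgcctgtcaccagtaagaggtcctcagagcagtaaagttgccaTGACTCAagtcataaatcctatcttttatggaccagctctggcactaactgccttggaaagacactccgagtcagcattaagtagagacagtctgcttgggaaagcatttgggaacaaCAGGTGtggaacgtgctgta
B3galnt2 (chr13:13968860-13969060): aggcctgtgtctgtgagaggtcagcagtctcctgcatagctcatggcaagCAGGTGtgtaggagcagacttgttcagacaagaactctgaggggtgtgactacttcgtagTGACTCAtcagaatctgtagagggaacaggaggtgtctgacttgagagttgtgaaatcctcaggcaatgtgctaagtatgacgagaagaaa
Gpt2 (chr8:85501149-85501349): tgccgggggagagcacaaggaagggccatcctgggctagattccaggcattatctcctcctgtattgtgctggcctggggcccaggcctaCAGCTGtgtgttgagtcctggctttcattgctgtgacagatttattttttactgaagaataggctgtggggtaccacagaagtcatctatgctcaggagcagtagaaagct
Tead1 (chr7:112760823-112761023): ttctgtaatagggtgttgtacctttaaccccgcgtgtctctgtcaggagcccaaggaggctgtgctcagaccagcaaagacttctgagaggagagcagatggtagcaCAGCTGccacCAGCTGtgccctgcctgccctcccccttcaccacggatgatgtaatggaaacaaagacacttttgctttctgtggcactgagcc
Lep (chr6:29066572-29066772): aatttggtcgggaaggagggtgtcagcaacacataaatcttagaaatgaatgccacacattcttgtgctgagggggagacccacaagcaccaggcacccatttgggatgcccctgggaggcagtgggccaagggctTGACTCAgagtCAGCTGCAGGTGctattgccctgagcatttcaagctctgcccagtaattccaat
Kat2b (chr17:53596465-53596665): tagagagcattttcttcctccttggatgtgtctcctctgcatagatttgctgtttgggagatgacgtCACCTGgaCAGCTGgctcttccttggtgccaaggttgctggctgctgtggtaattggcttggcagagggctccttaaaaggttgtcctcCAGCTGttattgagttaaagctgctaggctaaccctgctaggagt

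GM-side windows more often held an AP-1 motif. Those of Junb, Ephb2 and Sox9 are shown for contrast, with Irf2 for a region that was held in all 7 lists and ranked lower in DM. Junb also has a pair of CAGCTG, so GM-side regions were not all free of E-boxes, and in the Sox9 window CACCTG runs into the AP-1 motif. These 10 windows were taken from the named regions after their values were seen.
Junb (chr8:84981151-84981351): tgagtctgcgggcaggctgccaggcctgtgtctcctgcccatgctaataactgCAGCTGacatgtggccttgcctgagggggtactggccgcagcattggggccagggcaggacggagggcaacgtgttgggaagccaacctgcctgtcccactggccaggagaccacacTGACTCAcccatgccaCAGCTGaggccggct
Ephb2 (chr4:136834026-136834226): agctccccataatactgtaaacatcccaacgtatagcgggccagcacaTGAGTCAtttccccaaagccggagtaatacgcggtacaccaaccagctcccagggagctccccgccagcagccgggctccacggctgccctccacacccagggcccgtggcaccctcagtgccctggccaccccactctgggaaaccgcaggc
Sox9 (chr11:112758128-112758328): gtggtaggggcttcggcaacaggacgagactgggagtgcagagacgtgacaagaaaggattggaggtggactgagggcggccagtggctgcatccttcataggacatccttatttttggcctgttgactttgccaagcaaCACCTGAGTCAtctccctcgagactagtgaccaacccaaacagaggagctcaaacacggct
Irf2 (chr8:46869564-46869764): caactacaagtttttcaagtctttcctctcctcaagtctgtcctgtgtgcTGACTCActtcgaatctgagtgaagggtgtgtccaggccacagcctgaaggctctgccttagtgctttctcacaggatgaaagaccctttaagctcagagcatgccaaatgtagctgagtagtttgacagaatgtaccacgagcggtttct

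Of the 252 DM-side regions, 126 had an E-box of either form no more than 100 bp from the summit (50%, exact binomial 95% interval 43.7 to 56.3%). Among the GM-side regions the number was 43 of 250 (17.2%, 12.7 to 22.5%), and over all 22514 regions it was 25.9%. The summit is that of the strongest peak of a region, both strands were searched, and the intervals cover counting error only, since regions of one genome are not replicates. The 3 shares did not overlap in their intervals, with DM-side regions above and GM-side regions below the level of all regions. CAGCTG alone was present in 36.5% of DM-side, 14.4% of GM-side and 19.1% of all regions. CAGGTG was present in 50 DM-side regions (19.8%), in 8 GM-side regions (3.20%) and in 8.68% of all regions. At least 2 E-box copies lay in the window of 42 DM-side regions (16.7%), 6 GM-side regions (2.40%) and 4.62% of all regions.

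AP-1 motifs went the other way. TGANTCA was found in 121 GM-side regions (48.4%, 42.1 to 54.8%), in 85 DM-side regions (33.7%, 27.9 to 39.9%) and in 32.7% of all regions, so DM-side regions were close to the overall level. The TEAD motif CATTCC, the site of the factors that YAP and TAZ bind, was in 24.0% of GM-side, 15.5% of DM-side and 17.0% of all regions. RUNX motifs (TGTGGTT) were in 18%, 13.5% and 9.31% in the same order, above the overall level on both sides. An AP-1 motif and an E-box in the same window were found in 42 DM-side regions (16.7%), 16 GM-side regions (6.40%) and 9.40% of all regions. MEF2 motifs were found in 1 region of each side, and MEF3 motifs in none of the 252 DM-side regions, which allows up to 1.45% (the upper exact binomial limit).

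Position relative to genes differed from the average region on both sides, and the motif shares were therefore also read in distal regions, whose summit lies over 1 kb from any protein-coding start. Promoters made up 41 DM-side regions (16.3%) and 26 GM-side regions (10.4%), but 37.4% of all regions. Introns held 110 and 114 and intergenic sequence 95 and 104. Among distal regions an E-box was present in 115 of 211 on the DM side (54.5%, 47.5 to 61.4%), in 38 of 224 on the GM side (17.0%, 12.3 to 22.5%) and in 30.2% of all 14099. The AP-1 share of distal GM-side regions, 51.8% (45 to 58.5%), was close to the 48.9% of all distal regions, and that of distal DM-side regions was 37.9% (31.3 to 44.8%). Thus among distal regions the AP-1 share was low on the DM side, and not high on the GM side. TEAD motifs were in 14.7% of distal DM-side, 25.4% of distal GM-side and 22.7% of all distal regions.

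E-boxes of DM-side regions were most frequent next to the summit, in a broad and uneven profile. In 20 bp bins, 28 DM-side regions (11.1%) had the centre of an E-box in the first bin after the summit and 26 (10.3%) in the last bin before it. GM-side regions had 4 and 5 in the same bins, and all regions had a flat profile (733 and 709 of 22514). Further from the summit, 24 DM-side regions (9.52%) had an E-box centre in the bin from 40 to 60 bp after it. The bin from 100 to 120 bp after it, outside the window searched above, also had 24. AP-1 motifs lay around the summit in every set, with the highest GM-side bin at 9.60%.

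**Figure D1:**
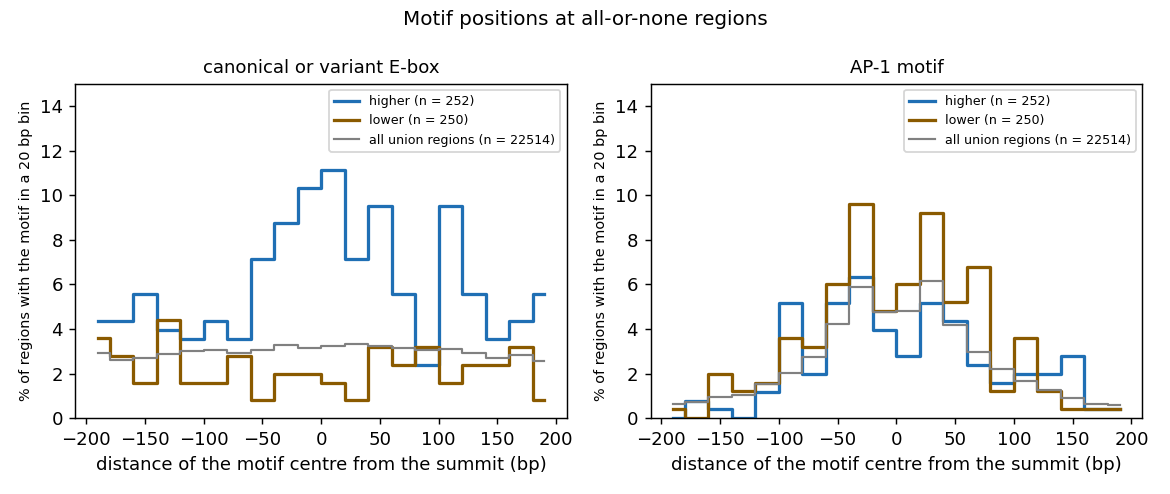
Percent of regions with a motif centre in each 20 bp bin (y axis) against the distance from the peak summit in bp (x axis), for E-boxes (left; canonical CAGCTG or variant CAGGTG) and AP-1 motifs (right; TGANTCA), in the 252 regions higher in DM +dox (blue), the 250 lower (brown) and all 22514 regions (grey). The blue E-box line reaches 11.1% at the summit and 9.52% in the bin from 100 to 120 bp, while the grey line stays flat. The brown AP-1 line reaches 9.60%.

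The same motifs were then counted over whole cut lists, where each library gives 1 value and the medium can be tested. CAGGTG was within 100 bp of the summit in 7.17, 6.83, 6.93 and 7.25% of peaks in GM +dox replicates 1 to 4, and in 9.25, 9.62 and 9.24% in DM +dox replicates 2 to 4. Every DM list lay above every GM list. The means were 9.37 ± 0.216% in DM (SD, n = 3) and 7.05 ± 0.199% in GM (SD, n = 4), a difference of 2.32 percentage points (two-sided exact permutation p = 0.0571, the smallest that 3 against 4 libraries allow; adjusted p = 0.343 over 18 motifs). With replicates paired by number the difference was 2.37 points (exact sign-flip permutation p = 0.25, the smallest for 3 pairs). TEAD motif shares differed by −1.57 points (exact permutation p = 0.514), AP-1 shares by −2.82 (exact permutation p = 0.286), RUNX shares by −0.99 (exact permutation p = 0.229) and MEF2 shares by −0.12 (exact permutation p = 0.171). Paired by number, AP-1, RUNX and MEF2 shares were each lower in DM in all 3 pairs (exact sign-flip permutation p = 0.25, the smallest for 3 pairs). Most of the 18 motifs kept their direction in all 3 pairs, and both E-box forms were higher in DM each time. The pairs therefore do not set AP-1, RUNX and MEF2 apart from the other motifs. CAGCTG was in 18.3, 17.0, 16.5 and 17.3% of GM peaks and in 20.8, 18.5 and 19.4% of DM peaks, a difference of 2.29 points. The CCAAT letters of NFY were in 30.8 ± 0.300% of DM peaks (SD, n = 3) and 30.1 ± 0.261% of GM peaks (SD, n = 4), a difference of 0.78 points. For both, every DM list also lay above every GM list (exact permutation p = 0.0571, adjusted p = 0.343 each). No motif of the 18 passed after adjustment.

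The lists were also split by position, a split chosen after seeing the data. Of distal peaks, 22.4, 20.9, 21.7 and 23.9% had CAGCTG in GM replicates 1 to 4, against 27.4, 25.9 and 28.6% in DM replicates 2 to 4. The groups did not overlap, and the difference was 5.11 points (exact permutation p = 0.0571, adjusted p = 0.114 over 6 tests). Of promoter peaks, 10.8 ± 0.389% had CAGCTG in DM (SD, n = 3) and 10.7 ± 0.531% in GM (SD, n = 4), a difference of 0.05 points (exact permutation p = 0.971). CAGGTG was in 10.4 ± 0.290% of distal DM peaks and 6.82 ± 0.258% of distal GM peaks (difference 3.54 points, exact permutation p = 0.0571). In promoter peaks the CAGGTG shares were 8.22 ± 0.316% and 7.36 ± 0.0935% (difference 0.86 points, exact permutation p = 0.0571), again with no overlap. The AP-1 share of distal peaks was 50.4 ± 2.53% in DM and 51.3 ± 2.49% in GM (exact permutation p = 0.743).

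**Figure D2:**
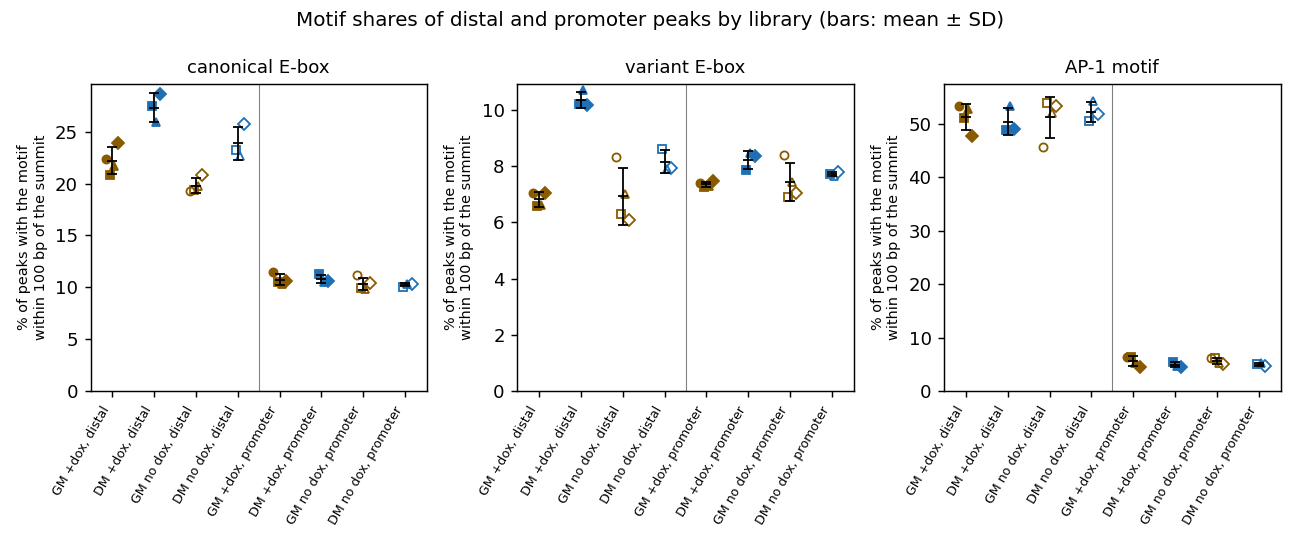
Percent of peaks with a motif within 100 bp of the summit (y axis) in each library, in distal and promoter peaks (x axis), for the canonical E-box (CAGCTG), the variant E-box (CAGGTG) and AP-1 (TGANTCA). Points are libraries, brown GM and blue DM, filled +dox and open no dox, shaped by replicate number (circle 1, square 2, triangle 3, diamond 4); bars are the mean ± SD. Distal DM +dox points lie above all distal GM +dox points for both E-boxes, while promoter CAGCTG shares of the 2 media overlap.

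The change with medium was also measured without dox, and the difference between the arms was tested by permuting the dox labels within each medium (1400 arrangements). All arrangements were counted, but the p-values hold strictly only where dox changes the share in neither medium. A dox effect common to both media widens the permuted differences. Without dox the CAGCTG share of distal peaks was 4.06 points higher in DM (exact permutation p = 0.0571), and the change was 1.05 points larger with dox (exact permutation p = 0.641). Its mean was higher with dox in both media (22.2 against 19.8% in GM, 27.3 against 23.9% in DM). That test therefore cannot decide whether the changes differed. The CAGGTG share of distal peaks differed by 1.22 points without dox (8.15 ± 0.410% in DM, 6.93 ± 1.01% in GM, exact permutation p = 0.171), and the change was 2.32 points larger with dox (exact permutation p = 0.0457, adjusted p = 0.274 over 6 tests). Over all peaks the CAGGTG change was 1.53 points larger with dox (exact permutation p = 0.0443, adjusted p = 0.797 over 18 motifs). Neither passed after adjustment. GM no dox replicate 1 had the highest CAGGTG share of its group, which makes the change without dox smaller. Its distal share was 8.3%, against 6.3, 7.0 and 6.1% in replicates 2 to 4. Over all peaks the shares were 8.35% and 6.55, 7.21 and 6.55%. This library had the shortest kept list, used whole, and its weakest peak had a −log10 p of only 3.94. Its part in the difference between the arms was not tested. Single regions were tested for an interaction only where every kept cut list of both arms had a peak. DM-side and GM-side regions, which lack a peak in some of these lists by definition, could therefore not enter. Of these 6067 regions, 0 (0%) had a dox by medium interaction in ranks (limma, adjusted p under 0.05). An unadjusted p under 0.05 was found for 48 and 68 of them in the 2 directions.

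Most DM-side and GM-side regions also had a weaker peak in the other medium, beyond the limit of the cut lists. In the whole deposited lists, 251 of the 252 DM-side regions had a peak in at least 1 GM list and 202 had a peak in all 4. All 250 GM-side regions had a peak in at least 1 whole DM list, and 240 in all 3. The DM-side regions had median whole-list ranks of 10279, 11442 and 10552 in DM replicates 2 to 4 (rank 1 is the strongest peak), and of 24757, 21721, 23017 and 19897 in GM replicates 1 to 4 over those with a peak. GM-side regions had median ranks from 8216 to 11335 in GM and from 18868 to 22459 in DM. Many were near the limit of the cut list: 134 DM-side and 163 GM-side regions ranked within 1.25 times the limit in at least 1 library of the other medium. Only 15 DM-side and 6 GM-side regions were beyond 2 times the limit, or without a peak, in every library of the other medium. In bulk libraries, fewer cells with an open site and less opening in each cell cannot be told apart.

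Depth differed between libraries, and the ranges of the media overlapped. The genome-wide background was 0.732 to 1.13 fragments per base in DM and 0.377 to 0.866 in GM (in replicate 3 it was lower in DM, 0.732 against 0.866), and the weakest peak kept had a −log10 p of 33.7 to 54.6 in DM and 22.1 to 41.4 in GM. Paired by number, the weakest kept peak was stronger in DM each time (54.6 against 41.4, 33.7 against 26.6 and 42.2 against 22.1 for replicates 2, 3 and 4). The median fold enrichment of kept peaks was also higher in DM in each pair (19.4 against 17.1, 16.3 against 13.7 and 16.3 against 12.55). The part of depth and peak strength in the motif and region differences was not tested. Muscle identity was checked at promoters: 10 to 12 of 23 myogenic regulators had a peak within 1 kb of a start in each of the 7 lists, while Myog, Myf5, Myf6, Pax3, Pax7 and Mef2c had none in any. Of 37 sarcomere genes, 31 had no promoter peak in any list, in either medium. Endothelial and macrophage markers had 0 of 7 in every list, adipocyte markers 1 or 2 of 7 (Adipoq, Fabp4, Plin1 and Cidec in none), and neuronal markers 0 or 1 of 7.

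The 8 DM-side regions with the highest ranks lay nearest to Zfp330, Hdhd3, Myh9, Gpt2, B3galnt2, Mtss1, Zfp637 and Lgi2, which are the genes with the nearest protein-coding start and need not be their targets. The Zfp330 region (a zinc finger protein gene; chr8:82777447-82778464, intergenic, 4 kb from the start) ranked 3796, 6211 and 1853 in DM replicates 2 to 4. In the whole GM lists it ranked 46789, 32952 and 22412 in replicates 1, 2 and 4 and had no peak in replicate 3. The B3galnt2 region (a glycosyltransferase that acts on dystroglycan; intronic, chr13:13968674-13969114) ranked 6488, 4985 and 4311 in DM, and in GM had a peak only in replicate 2 (rank 39786) and replicate 3 (rank 33262). Of the regions of both sides, it alone was within the strongest 7355 peaks of every list holding it and beyond 2 times the limit, or absent, in every library of the other medium.

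Gpt2 encodes the mitochondrial alanine aminotransferase, and its intronic region (chr8:85500875-85501617) ranked 6444, 4105 and 3055 in DM and in GM 50005, 30291 and 23489 in replicates 1, 2 and 4, with no peak in replicate 3. Myh9, the heavy chain of non-muscle myosin IIA, had 2 DM-side regions, an intergenic one 37.8 kb from the start (ranks 4588, 4838 and 2975 in DM) and an intronic one (ranks 10173, 7795 and 4724). They were 2 of 14 regions nearest to Myh9 within 50 kb. Mtss1, an actin- and membrane-binding protein gene, had an intronic region that ranked 2370 in DM replicate 2 and 8140 and 5976 in the others. Of these 8 regions, 6 had an E-box in the window, and the exceptions were the Hdhd3 region, inside a coding exon of Bspry, and the Zfp637 region.

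The strongest GM-side regions lay nearest to Mt4, Trabd2b, Ephb2, Cops8, Ppargc1b, Mterf1a, Junb and Pex3. Mt4, a metallothionein gene, had 2 of them, the stronger at ranks 1121, 4703, 2313 and 6851 in GM replicates 1 to 4 and at 28124, 16518 and 21869 in the whole DM lists. Junb, itself a subunit of AP-1, had an intergenic region 2.5 kb from the start (chr8:84981040-84981445) that ranked 2528, 6684, 4375 and 7118 in GM and 14822, 17983 and 17121 in DM, the first of these just past the limit. The region in an intron of Ephb2, an ephrin receptor (chr4:136833687-136834590), ranked 4510, 5612, 4039 and 2887 in GM and 24831, 15960 and 15939 in DM. Ppargc1b, a coactivator of mitochondrial genes, had an intronic region with ranks from 2196 to 8852 in GM and from 15239 to 25656 in DM. AP-1 motifs were in the windows of Trabd2b, Ephb2, Ppargc1b, Mterf1a and Junb.

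**Figure D3:**
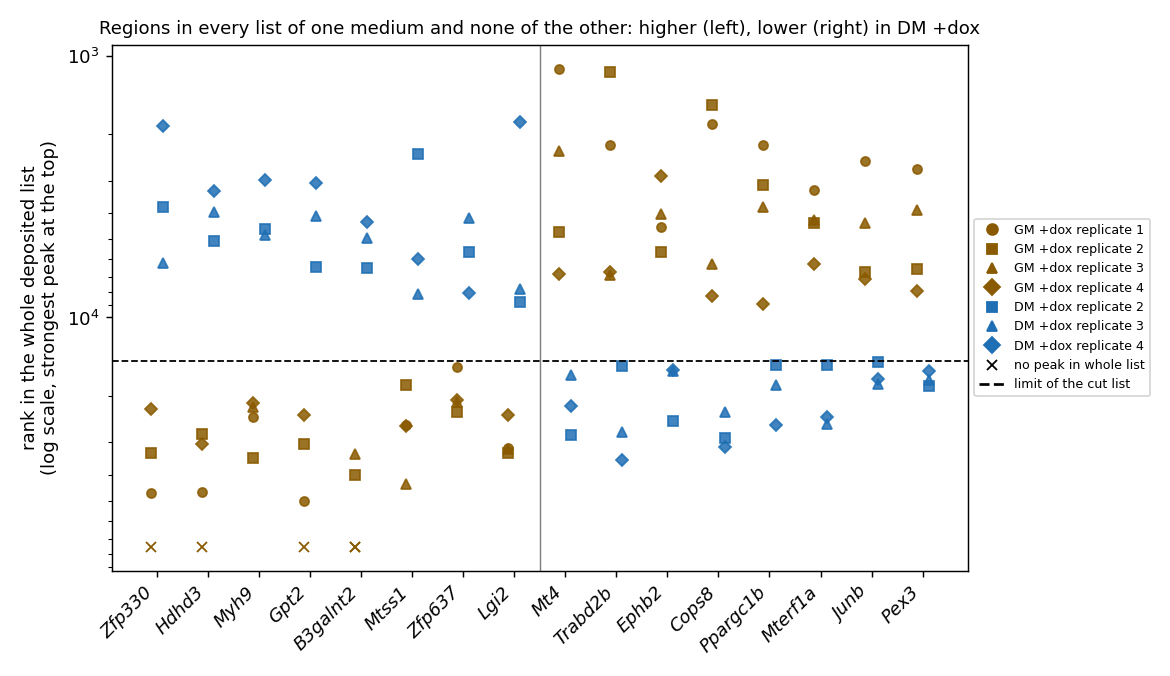
Rank in the whole deposited list (y axis, log scale, strongest at the top) of the 8 DM-side (left) and 8 GM-side (right) regions with the highest ranks, labelled by nearest gene (x axis). Brown points are GM +dox and blue points DM +dox libraries, shaped by replicate number, crosses mark libraries with no peak (2 overlap at B3galnt2), and the dashed line is the limit of 14710 peaks. Points of the 2 media lie on opposite sides of the line at every region by the definition of the sets, and Junb in DM replicate 2 (rank 14822) lies next to it.

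Ranks were next compared over the 8028 regions present in all 7 lists, as percentile ranks (100 is the strongest). No region passed in either direction (0 of 8028, 0%, limma, adjusted p under 0.05), whereas 331 had an unadjusted p under 0.05 in the higher direction and 504 in the lower. Replicate numbers paired the libraries, and with the replicate as a block limma called 8 regions higher in DM (0.0997% of those tested) and 37 lower (0.461%). These calls rest on the pairs: without pair 2 or without pair 4 none remained (0 in both directions), and without pair 3 there were 53 and 143. GM replicate 1 has no partner and does not enter the blocked difference. All 45 regions were distal. E-boxes were in the windows of 7 of the 8 higher and 6 of the 37 lower regions, and AP-1 motifs in 2 and 18.

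The 8 regions higher in DM with the block lay nearest to Rasa3, Kat2b, Rapgef1, Pknox1, Myt1l, Iqcn, Trim8 and Slc22a22. In the intron of Kat2b, the gene of an acetyltransferase known to modify MyoD1, the region (chr17:53596246-53596850) ranked 10140, 14009, 14006 and 13018 in GM and 2641, 7112 and 5553 in DM. Every DM value was stronger than every GM value, with a blocked difference of 58.3 ± 11.1 percentile points (SE, limma adjusted p = 0.0434; 0.213 without the block). Rasa3, a Ras GTPase-activating protein gene, had an intronic region at ranks 7858, 11397, 13515 and 11027 in GM and 2690, 3338 and 3488 in DM (blocked difference 59.9 ± 10, limma adjusted p = 0.0434). An intronic region of Rapgef1, which encodes an exchange factor for Rap GTPases, ranked 8567 to 13258 in GM and 1125 to 4537 in DM.

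Among the 37 lower regions, that 76.2 kb from Irf2, the gene of an interferon regulatory factor, had the smallest p. It ranked 524, 775, 834 and 1441 in GM and 9337, 10339 and 9077 in DM, so that a peak among the strongest of every GM list was in the weaker part of every DM list (blocked difference −58.2 ± 7.66, limma adjusted p = 0.0434; −59.1 ± 9.38 and 0.0812 without the block). A region 83.3 kb from Cxcr4, a chemokine receptor gene, ranked 85, 241, 481 and 1123 in GM and 5283, 7917 and 10115 in DM (blocked difference −48.7 ± 6.86, limma adjusted p = 0.0434). Lox, which encodes the collagen cross-linking enzyme lysyl oxidase, Postn, the matrix protein periostin, and Ncam1, an adhesion molecule, were nearest to further lower regions. Mrtfa, a coactivator of serum response factor, and Scd2, a fatty acid desaturase, had small differences at very strong peaks (−12.0 ± 2.25 and −12.8 ± 2.32 points). The genes described from the blocked calls other than Kat2b, Rasa3, Rapgef1, Irf2, Lox and Scd2 were chosen after their values were seen.

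**Figure D4:**
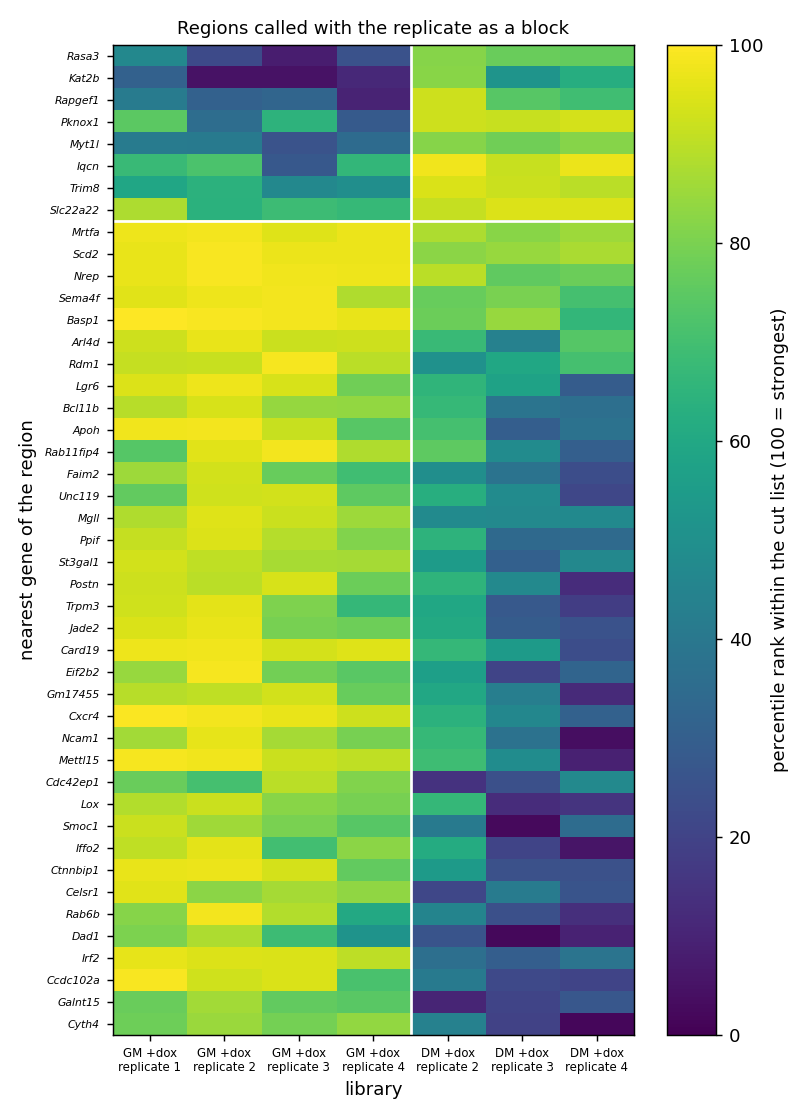
Percentile rank within the cut list (colour, 100 is the strongest peak) of the 45 regions called with the replicate as a block (rows, labelled by nearest gene) in the 7 libraries (columns). The upper 8 rows are brighter in DM +dox and the lower 37 brighter in GM +dox; for Lox, DM replicate 2 (rank 4887) is nearer to the GM libraries than DM replicates 3 and 4 (12818 and 12497).

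The largest unblocked differences, none of them called, were 61.8 ± 14.1 points for an intronic region of Osbp2, an oxysterol-binding protein gene (limma adjusted p = 0.199), and −61.5 ± 11.5 for an intronic region of Ccdc102a (limma adjusted p = 0.136). The Osbp2 region ranked 14013, 11332, 14656 and 8749 in GM and 1372, 1722 and 6181 in DM. A region in an intron of Mmp2, assigned to Lpcat2 by its start, ranked 12008, 12066, 12649 and 3470 in GM and 2499, 2525 and 264 in DM, with GM replicate 4 apart from the other GM libraries. The further members of the fixed rule, not described elsewhere, were Eef1a1, Celsr2 and Svil with higher ranks in DM (47.0 to 49.8 points) and Cyth4, Dad1, Galnt15, Celsr1, Smoc1 and Ctnnbip1 with lower ranks (−56.2 to −59.7 points).

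Rank differences were also read by position and E-box over all regions. The median difference over the 8028 regions was 2.14 points, and it was 4.85 for the 4243 promoter regions and −2.41 for the 3785 distal ones. With the replicate block these medians were 1.41, 2.85 and −1.70. Median promoter percentiles varied within a medium, at 64.3, 64.0, 75.9 and 78.7 in GM replicates 1 to 4 and 71.5, 78.7 and 80.1 in DM replicates 2 to 4. Within distal regions the median unblocked difference was 0.62 for the 1210 with an E-box and −4.03 for the 2575 without. It was −4.68 for the 1403 with AP-1 and no E-box. These medians are descriptions across regions, which share the libraries.

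Gene lists were read by the regions within 50 kb of a listed start. Over all protein-coding genes, 187 of 18161 such regions (1.03%) were DM-side and 176 (0.969%) GM-side. Of 48 regions near genes of the IGF, insulin and FOXO pathways, 3 were DM-side and none GM-side: Igf2r, the receptor that clears IGF2, Igfbp4, an IGF-binding protein, and Sesn1, a sestrin that restrains growth signalling. Of 136 regions near genes of TGF-beta and YAP signalling and the matrix, none was DM-side and 4 were GM-side, among them Smad3, the TGF-beta signal transducer, Smad6, an inhibitory Smad, and Amotl1, a YAP-binding scaffold. AP-1 and immediate early genes had 0 and 2 of 97 (Junb and Spred2, an inhibitor of ERK signalling), and myoblast fusion genes 0 and 2 of 47 (Myof, a membrane fusion protein, and Plekho1). Excitation-contraction coupling, acetylcholine receptor, cell cycle exit, sterol synthesis and Notch lists had none on either side. These counts are too small to set the lists apart from all genes.

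Myogenic genes were on both sides. In an intronic region of Tead1, a TEA domain factor that activates muscle promoters, the DM ranks were 6435, 12383 and 8490 and the whole-list GM ranks 17493, 21607, 24383 and 21203. Mb, which encodes myoglobin, had an intergenic region 8.1 kb from the start (chr15:77058569-77058937) at ranks 7411, 8015 and 9958 in DM and 34937, 27326, 31297 and 23754 in GM, beyond the limit in each. Lmod2, a nucleator of sarcomeric actin, had a weak region (ranks 13043 to 13884 in DM) near the limit. Snai2, a repressor that competes for E-boxes, had a weak DM-side region with a peak in 1 whole GM list. Eya4, a phosphatase and transcriptional cofactor, had a GM-side intronic region at ranks 10011, 8918, 9097 and 11672 in GM. E2f2, a cell cycle activator, and Nectin1, an adhesion molecule, were also GM-side.

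Among marker lists of other cell types, 3 of the 6 regions near bone and cartilage genes were GM-side: Col2a1 (type II collagen; ranks 1580, 2792, 6264 and 10509), Sox9 (the chondrogenic regulator; 6196, 6757, 11568 and 8206) and the promoter of Matn3 (a cartilage matrix protein; 4813, 9595, 6651 and 5329). At promoters, 1 or 2 of the 8 marker genes had a peak in GM lists and 0 or 1 in DM lists, and Acan, Bglap, Ibsp, Sp7, Dlx5 and Col2a1 had none. Of 10 regions near adipocyte markers, 1 was DM-side and none GM-side, where all protein-coding genes gave 1.03% and 0.969%. It was an intronic region of Lep, the leptin gene, at ranks 3660, 8044 and 9510 in DM and from 28853 to 41434 in GM. In the longer lists described next, 0 of 8 adipocyte regions were higher with the block. There 1 was lower, at the start of Cebpa (−16.4 ± 4.30 percentile points, SE, limma adjusted p = 0.0259). The part of other cell types in these regions was not tested.

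Longer lists carried the comparison to weaker peaks. With every list cut to 36531 peaks, the length of the shortest of the 7, 22783 regions had a peak in all 7, and limma with the replicate block called 589 higher in DM (2.59%) and 1173 lower (5.15%); without the block 10 and 37 were called. This combination was chosen after seeing the data, and leaving out 1 pair gave 181 to 542 higher and 547 to 1062 lower regions. E-boxes were in 345 of the 589 (58.6%, exact binomial 95% interval 54.5 to 62.6%), in 214 of the 1173 (18.2%, 16.1 to 20.6%) and in 25.9% of all tested. CAGGTG was in 25.6%, 3.15% and 8.45%, and AP-1 in 39.6%, 47.1% and 32.4%. TEAD motifs were in 26.9% of lower and 17.8% of higher regions, against 16.6% of all. Promoters were 12.2% of higher and 6.39% of lower regions, against 38.4% of all. The longer lists contain the shorter ones, so these shares are not independent of the counts above.

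Near listed genes, 436 of 18519 regions (2.35%) rose and 809 (4.37%) fell over all protein-coding genes. AP-1 and immediate early genes had 2 of 100 higher and 11 lower. The lower ones included Junb (−29.0 ± 5.55 percentile points, limma adjusted p = 0.00488), Egr3 (−26.0 ± 3.95) and both Ier2 regions. A distal Fos region changed by −6.98 ± 1.84, with overlapping ranks (3362 in GM replicate 4, 1430 in DM replicate 2). Genes of TGF-beta, YAP and the matrix had 1 of 123 higher and 9 lower, among them the promoter of Ccn2 (−26.0 ± 7.34, limma adjusted p = 0.0364), a YAP and TGF-beta target. The Ccn2 ranks overlapped (16301 in GM replicate 4, 8104 in DM replicate 2). The Notch list had 0 of 39 higher and 5 lower, led by Notch3 (−49.9 ± 7.83, limma adjusted p = 0.0018), and cell adhesion 0 of 53 higher and 6 lower. Inhibitors of myogenic factors had 2 of 42 higher and 4 lower. Id2, whose product sequesters E proteins, was at −28.2 ± 5.41. The higher ones were near Bhlhe41 and Mdfi, the latter at 21.6 ± 5.08 (limma adjusted p = 0.0146) with all DM ranks stronger than all GM ranks. Myogenic regulators had 1 of 60 higher and 5 lower, and myoblast fusion genes 1 of 48 and 4. The IGF, insulin and FOXO list had 3 of 47 higher and 4 lower, the lower ones near Sesn1 (−32.2 ± 8.89, limma adjusted p = 0.0326, at another region than its DM-side one), Igfbp7, Pdk4 and Fbxo32. Ranks of the media overlapped at these lower regions except Igfbp7. The proliferation list had 1 of 42 higher, near Hmga1, and 4 lower, near Ccne1, Myc, Hmga2 and another Hmga1 region. The sarcomere list had 0 of 29 higher and 1 lower, and sterol and fatty acid synthesis 0 of 40 and 1. The acetylcholine receptor and synapse list had 0 of 13 higher and none lower. No list was tested as a set.

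Genes of cell cycle exit had 3 of 36 regions higher and 1 lower. Cdkn1a, which encodes the cyclin-dependent kinase inhibitor p21, had 2 of the 3, at 40.3 ± 8.94 points (limma adjusted p = 0.0107; ranks 9432, 21609, 36238 and 21736 in GM and 7356, 13002 and 15031 in DM, which overlap) and 9.75 ± 2.37 points (limma adjusted p = 0.0172). The latter, at the stronger peak, ranked 3008, 4951, 1654 and 7317 in GM and 2103, 462 and 677 in DM, so GM replicate 3 was above DM replicate 2. Gadd45g, a growth arrest gene, had the third (44.7 ± 9.23, limma adjusted p = 0.00771), with overlapping ranks of 13165, 28136, 29920 and 35927 in GM and 5978, 20245 and 18827 in DM. Mb rose by 52.0 ± 8.78 points (limma adjusted p = 0.0026) and Tead1 by 36.4 ± 7.44 (limma adjusted p = 0.00711), each with all DM ranks stronger than all GM ranks. Itga7, the laminin-binding integrin subunit of muscle, rose by 23.6 ± 5.90, with ranks that just overlapped (8994 in GM replicate 2, 9000 in DM replicate 4). Cacna1s, the calcium channel of excitation-contraction coupling, rose by 30.9 ± 9.28 (limma adjusted p = 0.0474). The Cacna1s ranks overlapped, at 29351, 36287, 36295 and 23609 in GM and 23938, 23574 and 14776 in DM. Of 29 Z-disc, costamere and energy buffering regions, 2 were higher (Mb and Itga7) and 2 lower (Ldb3 and Sgcd). Of 23 excitation-contraction coupling regions, 2 were higher (Cacna1s and Mypn) and 2 lower. The lower ones were near Casq2 (−36.5 ± 9.62, with overlapping ranks) and Jph2 (−13.8 ± 2.95). Fbxo32, the atrophy ubiquitin ligase, had 1 region higher (24.3 ± 6.5) and 1 lower (−17.0 ± 4.95), both with overlapping ranks. The genes given here were chosen after their values were seen, from the listed genes nearest to called regions.

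**Figure D5:**
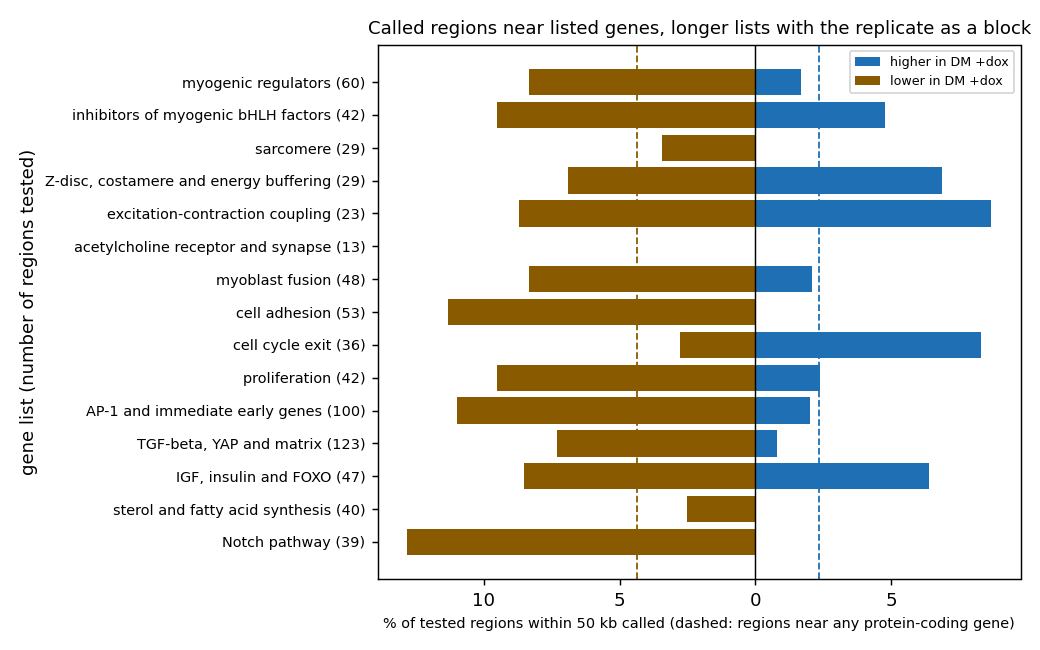
Percent of tested regions within 50 kb of listed genes (x axis) that limma with the replicate block called higher (blue, right) or lower (brown, left) in DM +dox in lists of 36531 peaks, for lists with at least 10 regions (y axis, number of regions in brackets). Dashed lines mark the 2.35% higher and 4.37% lower over regions near any protein-coding gene. Cell adhesion, Notch, sarcomere, and sterol and fatty acid synthesis genes had lower calls only, the last 2 lists with 1 each. Cell cycle exit genes had more higher than lower calls (3 and 1).

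The 9 genes followed whatever their values gave few differences. Within 10 kb, Myog, Mymk, Ckm and Actc1 had no peak in any of the 7 lists of 14710, although Mymk and Ckm had weaker ones in every whole list. Mymx, which encodes the fusion micropeptide myomixer, had 1 peak in each list, at ranks from 2090 to 6819 in GM and from 3097 to 6458 in DM. Cdh15, the M-cadherin gene of myoblasts, had 3 peaks in each whole list; in the longer lists the one 3.9 kb from the start fell by 32.7 ± 6.65 points (limma adjusted p = 0.00706), from ranks 4693, 3290, 10247 and 10212 in GM to 10900, 26715 and 21936 in DM, while that 2.9 kb from the start differed by −5.18 ± 6.73 (limma adjusted p = 0.703). At Myod1, a region 34.8 kb from the start fell by 29.9 ± 7.99 points with the block (limma adjusted p = 0.0283), but its ranks overlapped between media (8341, 2035, 8006 and 7902 in GM, 5265, 14256 and 31185 in DM). The region at the Myod1 start, where endogenous and transgene sequence cannot be told apart, differed by −9.85 ± 4.40 (limma adjusted p = 0.183). Of 4 Id3 regions and 4 Ccnd1 regions none passed, the nearest being an Id3 region 3 kb from the start (−14.0 ± 4.35, limma adjusted p = 0.0547).

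Presence in the no dox libraries was read against the average of all 22514 regions, 62.0% in DM no dox and 61.4% in GM no dox lists. The peaks of these libraries did not enter the choice of regions. They entered only through the limit of 14710, which is the length of the GM no dox replicate 1 list. DM-side regions averaged 55.0% in DM and 14.1% in GM no dox lists, and GM-side regions 28.7% and 77.3%. Of the 126 DM-side regions with an E-box, 55.6, 42.1 and 55.6% had a peak in the cut lists of DM no dox replicates 2 to 4, and 16.7, 4.76, 11.1 and 12.7% in GM no dox replicates 1 to 4. The 126 DM-side regions with no E-box gave 59.0 ± 7.71% in DM (SD, n = 3) and 16.9 ± 2.93% in GM no dox (SD, n = 4), against 51.1 ± 7.79% and 11.3 ± 4.95% for those with one and 57.8 ± 1.55% and 52.8 ± 1.72% for all 5825 regions with an E-box. Of GM-side regions with AP-1, 78.3 ± 9.33% were in GM no dox and 30.6 ± 8.63% in DM no dox lists. In no list of the no dox arm were 45 of the 252 DM-side regions, 7 of the 250 GM-side regions and 2536 of all 22514. The Lep, Eya4 and Lmod2 regions were among these. An E-box was present in 26 of the 45 (57.8%, exact binomial 95% interval 42.2 to 72.3%) and in 100 of the 207 others (48.3%, 41.3 to 55.3%), which overlap.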

How the data were processed

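ATAC-seq libraries of C2C12 iMyoD1 cells were processed by the authors with nf-core/atacseq against mm10, with blacklist removal, and MACS2 narrow peaks were called per library. Versions of MACS2 and deepTools are not given in the sources used here. The deposited lists give, as the authors' own values, a fold enrichment (a ratio), the −log10 p and −log10 q, and the summit of each peak. Count models do not apply to such values, and depth was solved from the fold and p values.

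The −log10 p grows with depth, so only its rank within a list was compared. Lists were cut to 14710 peaks (the shortest kept list of the series), and regions merged at 1 bp of overlap. No peak ran past a GRCm38 chromosome end, so GRCm38.p6 sequence and GENCODE M21 protein-coding genes were used. Promoters are within 1 kb of a start. 18 motifs were searched on both strands within 100 bp of summits. Percentile ranks of regions in all 7 lists were fitted with limma 3.58.1 (trend and robust moderation, R 4.3.3) with Benjamini-Hochberg adjustment over all regions, and motif shares were compared by exact permutation of libraries, two-sided (scipy 1.17.1). The interaction was fitted over the 14 kept libraries of both dox arms, on regions with a peak in every one of their cut lists.

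Same-number DM and GM libraries deviated together (correlations 0.56, 0.234 and 0.432 for replicates 2, 3 and 4), so the numbers were taken to pair the libraries, a hint from the data and not from the labels. On simulated ranks of 8028 regions with 200 shifted by 2 in normal score, the unblocked fit recovered 58% with 3 false calls, and the blocked fit on simulated pairs 69% with 1. The simulated noise was independent between regions with 1 common SD, and the pair effect was set from the correlations of these data. These numbers therefore show that the fits run as intended, and do not measure false calls in the real lists.

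Named genes were, per direction, the 8 DM-side or GM-side regions with the highest mean rank, the 8 largest rank differences, genes of 20 lists within 50 kb of such a region, and 9 genes whatever their values. A gene that the rule names is not reported here. Members and lists were chosen with earlier results of these data known. Alternatives changed list length, thresholds, ranking, region building, pairing and libraries.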

Additional observations from a re-analysis of the deposited data

Results flagged for a closer look

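Of 60 groups of 4 GM +dox values, 3 had a library whose gap to the others exceeded Dixon's 95% limit for 4 samples, where chance gives about 1 in 20 groups, and all 3 were GM +dox replicate 4. The share of peaks with the sterol response element (TCACNCCAC) was 1.07% there and 1.18, 1.19 and 1.18% in replicates 1 to 3. The region in an Mmp2 intron nearest to the Lpcat2 start ranked 3470 in replicate 4 and 12008, 12066 and 12649 in replicates 1 to 3, and the Ctnnbip1 region ranked 3563 in replicate 4 and 469, 405 and 923 in replicates 1 to 3. Neither region was called without the replicate block. With it the Ctnnbip1 region was called (−54.2 ± 8.41 percentile points, SE, limma adjusted p = 0.0434) and the Lpcat2 region was not (51.9 ± 11, limma adjusted p = 0.0578).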

How the results depend on the processing

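Numbers of DM-side and GM-side regions (252 and 250) depended on the length of the lists: 121 and 106 in lists of 7355 peaks, 779 and 480 in lists of 36531, 1131 and 241 in all deposited peaks, and 1193 and 149 in peaks with a −log10 q of at least 5. With all 8 +dox libraries, which cut lists to 14236, they were 122 and 154, and within replicate numbers 3 and 4 they were 906 and 858. Leaving out 1 library, which loosens the definition, gave 310 to 565 and 299 to 580, most without DM replicate 2. The E-box share of DM-side regions stayed at 41.7 to 59.0% and that of GM-side regions at 15.4 to 19.3% in the 16 alternatives. Rank calls moved most: 0 higher and 3 lower with normal scores, 10 and 37 in lists of 36531, 8 and 37 with the replicate block, 175 and 346 with the block over regions in at least 3 lists, and 589 and 1173 with the block in lists of 36531. Without 1 library they were 0 in both directions except without DM replicate 2 (65 lower). With the block and without replicate 3 they were 53 and 143, and without replicates 2 or 4 they were 0; in lists of 36531 with the block they were 542 and 1062 without replicate 2, 351 and 854 without replicate 3, and 181 and 547 without replicate 4. The cause of these shifts was not tested. The AP-1 difference of distal peaks changed sign to 0.78 points within replicate numbers 3 and 4. Differences in motif shares over all peaks kept their direction in 16 alternatives each (CAGGTG 1.25 to 2.69 points, CAGCTG 1.65 to 3.04, AP-1 −4.88 to −0.57). With all 8 libraries the distal CAGCTG and CAGGTG differences were 4.74 and 3.91 points (exact permutation p = 0.0286). The interaction gave 0 calls in 5 alternatives, and was not run in lists of 36531. The replicate block changed no other call.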
